A study of Homo sapiens with 8 samples.

Results

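The STE20 and Hippo kinase guides are the sgRNAs of a pooled CRISPR knockout screen that target kinases of the STE20 family and the LATS kinases of the Hippo pathway. The kinases were picked with earlier results of these data known, and their guides were taken by gene name. They were every guide against a TAOK, MAP4K or LATS gene, against *STK3*, *STK4*, *STK10*, *STK24*, *STK25* or *STK26*, or against *SLK*, *MINK1* or *TNIK*. This gave 126 guides against 18 genes, with 7 guides for each gene, out of 10429 guides in the library, of which 9929 targeted 1420 genes and 500 were control guides. The screen used COV362, an established cell line of high-grade serous ovarian cancer, labelled as wild type and chemo-resistant. The study describes these cells as resistant to platinum chemotherapy. The cells carried Cas9, which cuts DNA where a guide matches, so a cell's guide tells which gene was hit. Cells were stained for PRMT5, an arginine methyltransferase, and sorted into those with the least PRMT5 (PRMT5-low, 4 libraries) and those with the most (PRMT5-high, 4 libraries), to find genes whose loss lowers or raises PRMT5. Both populations came from the same transduced and puromycin-selected cells, which were split into replicate cultures only after selection, and no library from before the culture or of unsorted cells was analysed here.

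STE20 kinases are relatives of the yeast kinase Ste20 and many of them act at the top of MAP kinase cascades, where they switch on MAP3K kinases and through these the JNK and p38 stress kinases. In the Hippo pathway, the STE20 kinases MST1 (*STK4*) and MST2 (*STK3*) phosphorylate LATS1 and LATS2, which in turn phosphorylate the coactivators YAP and TAZ and keep them out of the nucleus. TAO kinases phosphorylate MST1 and MST2, and MAP4K kinases act on LATS kinases in parallel to them. The pathway is known as a restraint on growth in epithelial tissues.

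The deposited values are population summaries, so each guide has an abundance in CPM (read counts scaled to the same total in each library) averaged over the PRMT5-low libraries and another over the PRMT5-high libraries, and no value of a single library. The spread between the libraries enters as the standard error (SE) of each guide's share of the reads, given here on the CPM scale. The log2 ratio of a guide was log2 of CPM + 1 in PRMT5-low over CPM + 1 in PRMT5-high cells, so that a negative value marks a guide that was less abundant in PRMT5-low cells. The files letter the populations, and the direction follows the study's plot legend, although its methods text gives the opposite signs. A guide passed at a one-sided p under 0.05, with t tails for the difference of its shares over the SE of that difference. A gene was called toward a population at a one-sided p under 0.01 from Fisher's combination of its guides, with its mean log2 ratio also past 0.25 that way. With 4 libraries per population and no single library's value, no exact test could be made, so the p-values rest on the t approximation, and single guides are given with the 95% interval of their log2 ratio in place of a p. That interval is two-sided, so a guide that passed one-sided may have an interval that reaches 0. The depth recovered from the variances was 19117396 reads in PRMT5-low and 16166859 in PRMT5-high cells over 4 libraries each, and it sets counting error only. The 126 guides had a median of 448 reads per PRMT5-low library and 387 per PRMT5-high library, and the least abundant over both populations, a *TNIK* guide, had 88.3 reads per PRMT5-low library and 45.6 per PRMT5-high library. The median guide of these kinases stood at 94.5 CPM in PRMT5-low and 95.7 CPM in PRMT5-high cells, while the median over all targeting guides was 84.9 CPM in PRMT5-low and 85.0 CPM in PRMT5-high cells. No guide sequence was read, so cutting at paralogs was not tested, and loss of the kinases was not measured.

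Of the 18 kinase genes, *TAOK1* was called toward PRMT5-high cells and none toward PRMT5-low cells. Among all 1420 genes, 0.845% were called toward PRMT5-high and 0.704% toward PRMT5-low cells. *TAOK1* encodes a TAO kinase that activates the p38 cascade through MAP2K3 and MAP2K6 and also acts on MST1 and MST2. The gene is on chromosome 17 (29390363 to 29551903 in GRCh38). Its 7 guides averaged 122 CPM (SD 42.3 over guides) in PRMT5-low and 153 CPM (SD 57.8) in PRMT5-high cells. The mean log2 ratio was -0.32 (SD 0.25 over guides), so the guides were 0.799 times as abundant in PRMT5-low as in PRMT5-high cells. The SE of this mean from the spread between libraries was 0.08, with a 95% interval of -0.49 to -0.16. Fisher's combination gave a one-sided p of 5.08e-05 (adjusted p = 0.0241 over all genes). This p ranked 3 of 1420 in its direction, while the mean ranked 19 from the most negative. *TAOK1* had already been named from these libraries, so its p describes the same data and is not independent support.

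All 7 *TAOK1* guides were less abundant in PRMT5-low cells, but by unequal amounts. Guide 4 stood at 162 CPM (SE 8.93) in PRMT5-low and 246 CPM (SE 15.3) in PRMT5-high cells, a log2 ratio of -0.60 (95% interval -0.91 to -0.29). Guide 2 stood at 73.7 CPM (SE 2.31) in PRMT5-low and 110 CPM (SE 7.47) in PRMT5-high cells, a log2 ratio of -0.57 (-0.88 to -0.25). Both guides passed, and in both the populations lay apart by several standard errors. Guide 3 had nearly the same ratio, -0.58, with 93.5 CPM in PRMT5-low and 140 CPM in PRMT5-high cells. Its PRMT5-low libraries were far more uneven, with an SE of 21.9 CPM against 10.3 CPM in PRMT5-high, and it did not pass (-1.53 to 0.38). The variance of guide 3 in PRMT5-low cells was 97.7 times that from read counting alone, the highest of the 7 guides in either population.

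Guide 5 of *TAOK1* was the most abundant of the 7 in PRMT5-low cells, with 190 CPM (SE 6.84) there and 223 CPM (SE 3.70) in PRMT5-high cells. Its log2 ratio of -0.23 was much smaller than that of guide 4, yet it passed, with an interval of -0.38 to -0.08. In PRMT5-high cells its variance sat at the floor of the authors' method, where it reflects read counting alone. The remaining guides moved little against their spread. Guide 6 stood at 105 CPM in PRMT5-low and 119 CPM in PRMT5-high cells (log2 ratio -0.17, interval -0.74 to 0.40). Guide 1 stood at 92.1 CPM in PRMT5-low and 97.4 CPM in PRMT5-high cells (-0.08, interval -0.42 to 0.26) and guide 7 at 134 CPM in PRMT5-low and 139 CPM in PRMT5-high cells (-0.05, interval -0.88 to 0.78). So 3 guides lay near -0.6, of which 2 passed, and the other 4 lay between -0.23 and -0.05.

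The *TAOK1* call depended on how guides were summarised, and its adjusted p on the guides and variances used. The median over its guides was -0.23, which is short of the limit of 0.25, so with the median the gene was not called. When single guides were dropped, the mean lay between -0.37 and -0.28 and Fisher's p between 2.46e-05 and 0.00108, so it was called in 7 of 7 cases, but the adjusted p reached 0.118. Leaving out guide 2, 3, 4 or 5 took the adjusted p past 0.05, with values of 0.103, 0.0533, 0.118 and 0.103. With variances raised at least to their trend over abundance, the p was 0.00121 and the adjusted p 0.857. With the trend in place of each guide's own variance, which was chosen after the data were examined, the p was 0.000351 and the adjusted p 0.25. The gene was called with either set of variances.

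*TAOK3*, the other TAO kinase analysed here, on chromosome 12, was not called. Its guides averaged 95.3 CPM in PRMT5-low and 102 CPM in PRMT5-high cells, with a mean log2 ratio of -0.09 (SD 0.24, 95% interval -0.28 to 0.09). Fisher's one-sided p toward PRMT5-high cells was 0.0381 (adjusted p = 0.488). Guide 6 stood at 57.2 CPM (SE 4.66) in PRMT5-low and 74.2 CPM (SE 4.24) in PRMT5-high cells, and guide 5 at 96.5 CPM (SE 5.50) in PRMT5-low and 118 CPM (SE 7.09) in PRMT5-high cells. Both passed toward PRMT5-high cells, with intervals of -0.72 to -0.02 and -0.58 to 0.01, while 3 of the 7 guides leaned the other way, up to 0.21 for guide 7. The mean of *TAOK1* minus that of *TAOK3* was -0.23, with a 95% interval of -0.47 to 0.01 from the spread between libraries, so the interval includes 0 and also differences larger than the *TAOK1* mean itself. It does not cover differences in cutting between guides. Of the 14 guides against the TAO kinases, 0 passed toward PRMT5-low and 5 toward PRMT5-high cells (35.7%), 3 of them against *TAOK1*, where 5.66% of all targeting guides passed toward PRMT5-low and 6% toward PRMT5-high cells.

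The core kinases of the Hippo pathway showed no call. *STK4*, which encodes MST1, had a mean log2 ratio of -0.01 (SD 0.20, interval -0.18 to 0.16), and its guides averaged 113 CPM in PRMT5-low and 116 CPM in PRMT5-high cells. Its most abundant guide, at 354 CPM in PRMT5-low and 365 CPM in PRMT5-high cells, was also the most abundant of all 126 guides. The 7 guides spanned only -0.26 (guide 4) to 0.32 (guide 7), and none passed in either direction.

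*STK3*, which encodes MST2, had a mean log2 ratio of 0.00 that was made of opposite parts. Its guides 2, 6 and 7 were more abundant in PRMT5-low cells and each passed. Guide 7 stood at 264 CPM (SE 6.51) in PRMT5-low and 227 CPM (SE 13.1) in PRMT5-high cells, guide 6 at 82.8 CPM (SE 2.08) in PRMT5-low and 63.5 CPM (SE 7.72) in PRMT5-high cells. The PRMT5-low variance of guide 6 was at the floor, so its SE there reflects read counting alone. The other 4 guides were less abundant in PRMT5-low cells, down to -0.31 for guide 4, which stood at 60.2 CPM (SE 13.8) in PRMT5-low and 74.9 CPM (SE 13.1) in PRMT5-high cells, and none of these passed. Fisher's combination toward PRMT5-low cells gave a p of 0.0734 (adjusted p = 0.664). The interval of the mean ran from -0.31 to 0.31, the widest of the 18 genes.

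*LATS2*, one of the kinases that phosphorylate YAP and TAZ, had the most negative mean after *TAOK1*, -0.17 (SD 0.34, interval -0.36 to 0.02). Its guides averaged 119 CPM in PRMT5-low and 140 CPM in PRMT5-high cells, and Fisher's one-sided p toward PRMT5-high cells was 0.0129 (adjusted p = 0.401), so it missed both limits. Guide 1, the lowest, at 108 CPM (SE 11.5) in PRMT5-low and 148 CPM (SE 3.01) in PRMT5-high cells (log2 ratio -0.46, interval -0.92 to 0.01), passed, with its PRMT5-high variance at the floor. Guides 2, 4, 6 and 7 also lay below -0.25, and guide 5 was at 0.01. Guide 3, the least abundant, ran the other way with 58.4 CPM (SE 8.13) in PRMT5-low and 40.4 CPM (SE 7.72) in PRMT5-high cells, a log2 ratio of 0.52. Without guide 3 the mean was -0.29 and the p 0.00525, which would have called the gene, with an adjusted p of 0.274. *LATS1*, its paralog, had a mean of -0.05 (SD 0.16, interval -0.20 to 0.10), with guides between -0.33 (guide 7) and 0.14 (guide 2, 117 CPM in PRMT5-low and 106 CPM in PRMT5-high cells). Of its guides, guide 7 passed toward PRMT5-high cells (48.3 CPM in PRMT5-low, 60.8 CPM in PRMT5-high, interval of the log2 ratio -0.61 to -0.04), at the floor of variance in PRMT5-low. *LATS1* minus *LATS2* was 0.12 with an interval of -0.11 to 0.36.

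The MAP4K genes of the germinal centre kinase I group, *MAP4K1*, *MAP4K2*, *MAP4K3* and *MAP4K5*, were split in direction. *MAP4K1*, a kinase of blood cells that dampens T cell receptor signaling, had the most positive mean of the 18 genes, 0.13 (SD 0.25, interval -0.05 to 0.30). Its guides averaged 116 CPM in PRMT5-low and 101 CPM in PRMT5-high cells, and Fisher's p toward PRMT5-low cells was 0.0720 (adjusted p = 0.655). Its guide 6 stood at 263 CPM (SE 8.98) in PRMT5-low and 200 CPM (SE 18.4) in PRMT5-high cells (log2 ratio 0.40, interval 0.02 to 0.78) and passed. By contrast guide 3, with the highest ratio of 0.46, did not pass, and its PRMT5-high libraries were uneven (101 CPM with SE 6.08 in PRMT5-low, 72.7 CPM with SE 16.8 in PRMT5-high). The lowest guide, guide 7, was at -0.16.

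*MAP4K2* had a mean of 0.07 (SD 0.33) and guides between -0.33 (guide 7, 103 CPM in PRMT5-low and 130 CPM in PRMT5-high cells) and 0.68, the upper end coming from guide 5 at 45.1 CPM in PRMT5-low and 27.9 CPM in PRMT5-high cells (interval -0.29 to 1.64). *MAP4K3*, which has a role in the response of mTORC1 to amino acids, had a mean of -0.08 (SD 0.27) with guides between -0.44 (guide 1, 44.2 CPM in PRMT5-low and 60.4 CPM in PRMT5-high cells) and 0.26 (guide 5, 53.9 CPM in PRMT5-low and 44.7 CPM in PRMT5-high cells). *MAP4K5* had a mean of -0.12 (SD 0.18) and 6 of 7 guides below 0, from -0.29 for guide 2 to 0.23 for guide 1. No guide of these 3 genes passed in either direction. *MAP4K1* minus *MAP4K5* was 0.25, with a 95% interval that began just below 0 and ended at 0.49.

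*MAP4K4*, *MINK1* and *TNIK* form the germinal centre kinase IV group, close paralogs that act on the JNK cascade and the cytoskeleton, TNIK also in Wnt signaling. *MINK1* held the guide with the smallest p toward PRMT5-low cells among the 126. This was guide 1, at 84.3 CPM (SE 2.09) in PRMT5-low and 61.3 CPM (SE 4.82) in PRMT5-high cells, with a log2 ratio of 0.45 (interval 0.13 to 0.78) and its PRMT5-low variance at the floor. Guide 5 of the same gene ran the opposite way, at 114 CPM (SE 14.7) in PRMT5-low and 174 CPM (SE 15.4) in PRMT5-high cells, a log2 ratio of -0.60 (interval -1.16 to -0.05). Guides against 1 gene thus passed in both directions, and the gene mean was -0.09 (SD 0.33, interval -0.29 to 0.11).

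*TNIK* had the largest spread over guides of the 18 genes, with an SD of 0.46 around a mean of -0.07 (interval -0.36 to 0.23). Its guide 1 stood at 56.4 CPM (SE 10.4) in PRMT5-low and 95.9 CPM (SE 10.6) in PRMT5-high cells, a log2 ratio of -0.75 (interval -1.51 to 0.00), and passed. The opposite end came from guide 5, the least abundant of the 126, at 18.4 CPM (SE 4.17) in PRMT5-low and 11.3 CPM (SE 5.21) in PRMT5-high cells, whose log2 ratio of 0.66 had an SE of 0.74. Without guide 5 the *TNIK* mean was -0.19 and Fisher's p toward PRMT5-high cells 0.0512. *MAP4K4* had a mean of 0.03 (SD 0.31) and guides between -0.27 and 0.50, the highest being guide 2 at 59.9 CPM in PRMT5-low and 41.9 CPM in PRMT5-high cells. Its guide 5 passed toward PRMT5-high cells, at 171 CPM in PRMT5-low and 206 CPM in PRMT5-high cells (interval of the log2 ratio -0.62 to 0.07). The PRMT5-low variance of this *MAP4K4* guide was at the floor.

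The germinal centre kinase III group, *STK24*, *STK25* and *STK26*, encodes kinases of the STRIPAK complex with roles in Golgi positioning and cell polarity. *STK26*, on the X chromosome, was the only gene beside *TAOK1* among the 18 whose 7 guides were all less abundant in PRMT5-low cells. Such a pattern was found in 1.2% of the 1420 genes, and 0.915% had all guides more abundant in PRMT5-low cells, which none of the 18 genes did. The *STK26* mean was -0.17 with the smallest SD over guides of the 18 genes, 0.14, and an interval of -0.37 to 0.03. Its guides averaged 119 CPM in PRMT5-low and 133 CPM in PRMT5-high cells. They ran from guide 1, at 107 CPM (SE 8.03) in PRMT5-low and 142 CPM (SE 14.0) in PRMT5-high cells (log2 ratio -0.41, interval -0.87 to 0.06), which passed, to guide 5, at 145 CPM in PRMT5-low and 146 CPM in PRMT5-high cells (-0.01), and no other guide of the gene passed. Fisher's combination gave a p of 0.110 toward PRMT5-high cells (adjusted p = 0.690). One direction in all guides therefore went with a gene p that did not pass.

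*STK24* leaned the other way, with a mean of 0.08 (SD 0.23) and 5 of 7 guides more abundant in PRMT5-low cells, and its guides averaged 96.9 CPM in PRMT5-low and 95.2 CPM in PRMT5-high cells. Its lowest guide, guide 1, had the largest PRMT5-high SE of the 7, at 127 CPM (SE 10.3) in PRMT5-low and 166 CPM (SE 36.2) in PRMT5-high cells, and without it the mean was 0.16. Its highest guide, guide 3, stood at 67.3 CPM in PRMT5-low and 55.6 CPM in PRMT5-high cells (log2 ratio 0.27). *STK25* had a mean of -0.09 (SD 0.32) with guides that passed in both directions, as in *MINK1*. Guide 6 stood at 52.6 CPM in PRMT5-low and 38.3 CPM in PRMT5-high cells (log2 ratio 0.45, interval -0.08 to 0.98) and guide 3 at 87.5 CPM in PRMT5-low and 117 CPM in PRMT5-high cells (-0.41, interval -0.82 to -0.01). The PRMT5-high variance of *STK25* guide 3 was at the floor. *STK24* minus *STK26* was 0.26, with an interval of -0.02 to 0.53.

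*SLK* and *STK10* encode kinases that phosphorylate the ezrin, radixin and moesin proteins linking the membrane to actin. *STK10* had a mean of -0.16 (SD 0.40, interval -0.41 to 0.08) and a one-sided p from Fisher's combination of 0.0476 toward PRMT5-high cells (adjusted p = 0.520). Its guide 5 had the most negative ratio of all 126 guides, -0.77, at 32.9 CPM (SE 2.45) in PRMT5-low and 56.9 CPM (SE 6.03) in PRMT5-high cells (interval -1.30 to -0.25). Guide 3 also passed, at 95.6 CPM (SE 8.10) in PRMT5-low and 143 CPM (SE 12.6) in PRMT5-high cells (-0.57, interval -1.02 to -0.12). The other 5 guides lay between -0.22 and 0.33, the highest being guide 2 at 56.9 CPM in PRMT5-low and 45.2 CPM in PRMT5-high cells. *SLK* had a mean of 0.00 (SD 0.24, interval -0.19 to 0.18), its guides spanning -0.24 for guide 2 to 0.32 for guide 3. Guide 4, at 168 CPM (SE 9.16) in PRMT5-low and 134 CPM (SE 9.36) in PRMT5-high cells, passed toward PRMT5-low cells (interval of the log2 ratio 0.01 to 0.64).

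Over all 126 guides, 7 passed toward PRMT5-low and 14 toward PRMT5-high cells. These were 5.56% of the guides toward PRMT5-low and 11.1% toward PRMT5-high cells, where all targeting guides had 5.66% toward PRMT5-low and 6% toward PRMT5-high cells. Of the 500 control guides, which have no target gene, 9% passed toward PRMT5-low and 6.6% toward PRMT5-high cells. Both shares lie above the limit of 0.05, so the guide p-values may run small. The same holds for the gene p and adjusted p built from them, those of *TAOK1* included. Without *TAOK1*, 7 of the 119 guides passed toward PRMT5-low (5.88%) and 11 toward PRMT5-high cells (9.24%). Guides against 1 gene share their target, and these differences in shares were not tested. No kinase guide passed an adjusted p of 0.05 over all guides, the smallest adjusted p being 0.512 toward PRMT5-low and 0.338 toward PRMT5-high cells, and among all targeting guides 4 passed toward PRMT5-low and 0 toward PRMT5-high cells.

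By gene, 4 of the 18 kinases had a Fisher p under 0.05 toward PRMT5-high cells, *TAOK1*, *LATS2*, *TAOK3* and *STK10*, and none toward PRMT5-low cells. The same limit was passed by 9.3% of all genes toward PRMT5-high and 8.59% toward PRMT5-low cells. Of the 18 gene means, 5 were above 0 and 13 below, with a median of -0.07, while over all genes the median was 0.00 and 51.5% were below 0. Measured against the median of the control guides, 0.01, 14 of the 18 means and 55.3% of all gene means lay below. Apart from *TAOK1*, no gene's 95% interval excluded 0, and 12 of the 18 means lay within 0.1 of 0. The SD of the gene means was 0.11 over the 18 genes and 0.12 over all genes, so their spread was much the same. Of the 20 differences between genes of the same role group, none had a 95% interval that excluded 0. The intervals were between about 0.4 and 0.7 wide, so these data do not show that genes of a role group acted alike.

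The more abundant kinase guides held most of the lean toward PRMT5-high cells. Of the 40 guides at 120 CPM or more, averaged over the populations, 31 were less abundant in PRMT5-low cells (77.5%), with a mean log2 ratio of -0.14 (SD 0.23). Of the 57 between 60 and 120 CPM, 34 were (59.6%), with a mean of -0.05, and of the 29 under 60 CPM, 14 were (48.3%), with a mean of 0.04. Without *TAOK1* the share at 120 CPM or more was 28 of 37 (75.7%). Over all targeting guides the shares were 50.0%, 49.5% and 51.6% in the same order, and among control guides 46.6%, 51.9% and 43.4%. The abundance limits were chosen after the values were seen, the guides come from few genes, and the difference was not tested. The spread of single ratios fell with abundance, from an SD of 0.35 under 60 CPM to 0.23 at 120 CPM or more.

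Control guides show how far a single guide can lie from 0 without a target gene. Their log2 ratios had a mean of 0.02 and an SD of 0.25, close to the SD of 0.29 over the 126 kinase guides, and 5% of them lay below -0.39 and 5% above 0.43. The control guides were more abundant than the kinase guides, with a median of 123 CPM in PRMT5-low and 123 CPM in PRMT5-high cells. Their SD was 0.38 under 60 CPM and 0.19 at 120 CPM or more, and the limits were not matched for abundance. Of the kinase guides, 7 lay above and 12 below these limits, and 3 of the 12 were against *TAOK1*. Among all targeting guides, 5.96% lay above and 8.37% below. In 8 of the 18 genes the SD over guides was smaller than the SE of a single ratio from the spread between libraries (root mean square over guides). *STK26* was one of them, with 0.14 against 0.25, while *TAOK1* had 0.25 against 0.21 and *TNIK* 0.46 against 0.37. The variance was at its floor for 18 kinase guides in PRMT5-low (14.3%) and 17 in PRMT5-high cells (13.5%), and for 17.6% of all guides in PRMT5-low and 12.1% in PRMT5-high cells.

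Genes outside the set that act beside or below these kinases were described from a list of 30. Of the 6 PAK kinases, the other branch of the STE20 family, none was called and the median of their means was -0.01. None of 13 MAP3K kinases, 4 MAP2K kinases (*MAP2K3*, *MAP2K4*, *MAP2K6* and *MAP2K7*) or 7 JNK and p38 kinases was called either, with medians of -0.01, 0.12 and -0.04. *MAPK8*, which encodes JNK1, had a one-sided Fisher p of 0.000672 toward PRMT5-high cells (adjusted p = 0.103) but a mean of -0.19, short of the limit. *MAP3K12* missed the other limit, with a mean of -0.29 but a Fisher p of 0.0599 toward PRMT5-high cells (adjusted p = 0.575). A Fisher p under 0.05 was also found toward PRMT5-high cells in 1 PAK and 2 MAP3K genes, and toward PRMT5-low cells in 0 of them. The 4 MAP2K genes did not share a direction. *MAP2K7*, a kinase of JNK, had a mean of 0.23 (Fisher's p toward PRMT5-low = 0.00511, adjusted p = 0.279), and *MAP2K4*, another kinase of JNK, a mean of -0.15 (Fisher's p toward PRMT5-high = 0.167, adjusted p = 0.744). *MAP2K3* and *MAP2K6*, kinases of p38 and both targets of TAO kinases, had means of 0.17 (Fisher's p toward PRMT5-low = 0.0108, adjusted p = 0.322) and 0.06 (Fisher's p toward PRMT5-low = 0.239, adjusted p = 0.876). Of the 28 guides against the 4 MAP2K genes, 7 passed toward PRMT5-low (25%) and 2 toward PRMT5-high cells (7.14%). All targeting guides had 5.66% toward PRMT5-low and 6% toward PRMT5-high cells, and control guides 9% and 6.6%. In the same order, the shares were 2.38% and 9.52% for the PAK kinases and 6.59% and 7.69% for the MAP3K kinases. For the JNK and p38 kinases they were 6.12% in each direction. The guides come from few genes, and these differences were not tested.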

How the data were processed

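Single-end reads were matched by the authors to the guide library, and the resulting counts of both populations were analysed with CB2. FastQC and hg38 stand in the submitters' processing notes, with no version stated. The deposited CPM of a guide is the authors' mean over the 4 libraries of a population. The deposited fraction is their estimate of a guide's share of the reads, with its variance over the libraries, another deposited column. The deposited log2 ratios and p-values hold the authors' own comparison, as does the table per gene, and were not used.

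From the fractions and variances the CB2 statistic was recomputed with Python 3.11.15, numpy 2.4.6, pandas 2.3.3 and scipy 1.17.1. It divides the difference of both fractions by its standard error, with t tails. One-sided p-values were combined per gene by Fisher's method, with Benjamini-Hochberg adjustment over 1420 genes or all 10429 guides. Control guides were not counted as a gene. Intervals use the delta method and cover the spread between libraries, which may be technical. The depth is the number of reads at which the smallest variances equal binomial counting variance. PCR reads are not independent molecules, so it covers counting error only. The functions were tested on simulated data, with planted ratios larger in size than any of the 18 gene means. Each population had a single level of excess variance there, so smaller ratios and uneven guides were not covered. Gene coordinates are from RefSeq for GRCh38.p14, where all 18 symbols matched.

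The kinases, lists and limits were chosen with earlier results of these data known. All 18 genes are named, with every *TAOK1* guide, the guides of highest and lowest ratio of each other gene, and every guide with a one-sided p under 0.01. Further guides, and the single genes named outside the set, were named after their values were seen. Alternatives were Stouffer's method, CPM + 5 and CPM + 10, a minimum of 20 CPM with at least 3 guides, centring on control guides, the median over guides, leaving out guides, normal tails, trended variances over 20 abundance bins and other p limits.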

Additional observations from a re-analysis of the deposited data

How the results depend on the processing

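No paired analysis was possible because the deposited columns pool the 4 libraries of each population and carry no replicate numbers, and for the same reason no library could be left out. Of 18 kinase genes, 1 was called toward PRMT5-high cells. This count was 0 with the median over guides, where *TAOK1* stood at -0.23. It was 2 without guides at the smallest variance, an alternative chosen after the data were examined, the second gene being *STK10*. With guides left out by their number it ran from 1 to 2, the second gene being *LATS2*, and the *TAOK1* mean ran from -0.37 to -0.28. The same omissions gave -0.32 to -0.15 for *TAOK1* minus *TAOK3*, and -0.07 to -0.05 for the mean over the 18 genes. The count toward PRMT5-low cells was 0 under every alternative run. With normal tails, 8 kinase guides passed toward PRMT5-low cells in place of 7 (6.35%, against 8.95% of all targeting guides), and 22 toward PRMT5-high cells in place of 14 (17.5%, against 9.52% of all targeting guides). With an adjusted p under 0.05, 0 passed in either direction, in place of 7 toward PRMT5-low and 14 toward PRMT5-high cells. Without guides at the smallest variance the adjusted p of *TAOK1* was 0.749. The other 17 genes kept their side of the limits under Stouffer's method, CPM + 5, CPM + 10 and a 20 CPM minimum. This made 68 of 68 alternatives, but most of them could not have changed a call. Stouffer's method leaves the means of these genes as they were, all short of 0.25. CPM + 5 and CPM + 10 leave their Fisher p as it was, above 0.01. Among these genes the 20 CPM minimum altered the values of *TNIK* only. Depth limits the rarest guides, such as the *TNIK* guide whose log2 ratio had an SE of 0.74.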
